A study of Homo sapiens with 4 samples.

Results

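H3K4me3 peaks near the short-arm ends of 17 human chromosomes were described in MDA-MB-231, a cell line of triple-negative breast cancer, with and without a knockout of ARID1A. The ends were the first 2 Mb of chromosomes 1 to 12 and 16 to 20 in hg19 coordinates, and a peak belonged to an end when its start lay below 2 Mb. They were set against windows of equal length, from 10 to 12 Mb, on the same chromosomes. The ends held 524 of the 23588 peaks of the knockout list and 674 of the 36677 peaks of the control list, or 1198 of 60265 in all. The interior windows held 375 knockout and 574 control peaks.

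The study profiled trimethylation of lysine 4 of histone H3 by chromatin immunoprecipitation (IP) and sequencing in cells lacking ARID1A and in control cells of the same line. Each genotype had 1 IP and 1 input library, and peaks were called by the authors in each IP against the input of its genotype. The knockout IP held 13391724 tags (aligned reads) and the control IP 27748061. Of these, 99.4% lay in peaks in the knockout and 62.1% in the control. Since there were no replicates, differences between genotypes and between windows had no replicate check, and none was tested. Intervals are exact 95% intervals, Poisson for counts, Clopper-Pearson for shares, and binomial for ratios of counts. They cover counting error only and treat PCR copies of a fragment as separate tags. A count of 0 is given with the limit that 3 counts would set. The header of the knockout list calls its library K6, and the labels number the cell line differently in 3 of the 4 libraries. The inputs carry IgG as their antibody label. The labels do not say whether the knockout line was a clone or a pool of cells.

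H3K4me3 is deposited by the SET1/MLL family of methyltransferases and marks the nucleosomes around active promoters, so that peak density follows the density of active genes. ARID1A is the DNA-binding subunit of the BAF form of the SWI/SNF complex, which moves and evicts nucleosomes. Chromosome ends finish in telomere repeats, followed inward by subterminal blocks that have been copied between chromosomes, where the placement of short reads is uncertain. Beyond those blocks gene content differs widely from end to end. No gene annotation in hg19 was used here, so peaks are given by position and are assigned to no gene.

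The chromosome ends were denser in peaks than the interior windows in both genotypes, and they differed far more from one another than the pooled values show. In the knockout list the ends held 15.4 peaks per Mb (14.1 to 16.8), against 11.03 per Mb (9.94 to 12.2) in the interior windows, a ratio of 1.397 (1.22 to 1.60). In the control list the ends held 19.8 peaks per Mb (18.4 to 21.4), against 16.9 per Mb (15.5 to 18.3), a ratio of 1.17 (1.05 to 1.31). Without chromosome 17 the control ratio was 1.08 (0.965 to 1.22) and without chromosome 7 it was 1.10 (0.979 to 1.23), intervals that take in 1. The knockout ends had more peaks than their interior windows on 12 of 17 chromosomes. The exceptions were chromosomes 2, 3, 5, 6 and 18. In the control list the ends were the denser window on 10 of 17, and the exceptions were chromosomes 2, 3, 6, 8, 10, 18 and 20. Peaks covered 0.708% of the end windows in the knockout list and 8.88% in the control list. They covered 0.465% and 6.49% of the interior windows.

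Chromosome 19 had the densest end in both lists, with 44 peaks per Mb (35.3 to 54.2) in knockout cells and 45 (36.2 to 55.3) in control cells. In the knockout list chromosomes 1 and 11 followed, with 29.5 and 28.5 peaks per Mb. In the control list chromosomes 16 and 1 followed, with 37.5 and 33 peaks per Mb. The interior window of chromosome 19 was nearly as dense as its end, at 42.5 peaks per Mb in knockout and 40 in control cells. The sparsest end was that of chromosome 3, with 0 knockout peaks, where 3 counts would be 1.5 per Mb, and 1 control peak. Chromosome 8 came next in the knockout list, with 8 peaks, and chromosomes 2, 6 and 10 had 15 each. In the control list chromosomes 9 and 2 came next, with 13 and 14 peaks. On 14 of the 17 ends the knockout count was below the control count, and it was above it on chromosomes 2, 9 and 11. The interior windows went the same way on 12 of 17 chromosomes, with 4 higher in the knockout and 1 equal. The whole knockout list was also shorter, at 23588 against 36677 peaks, from an IP of 13391724 against 27748061 tags. The part of list length and depth in these counts was not tested. Across the 17 ends the peak counts of the lists ranked together with a Spearman's rho of 0.91, against 0.72 across the interior windows. These are descriptions of windows of unequal gene content, with each list from 1 library.

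**Figure D1:**
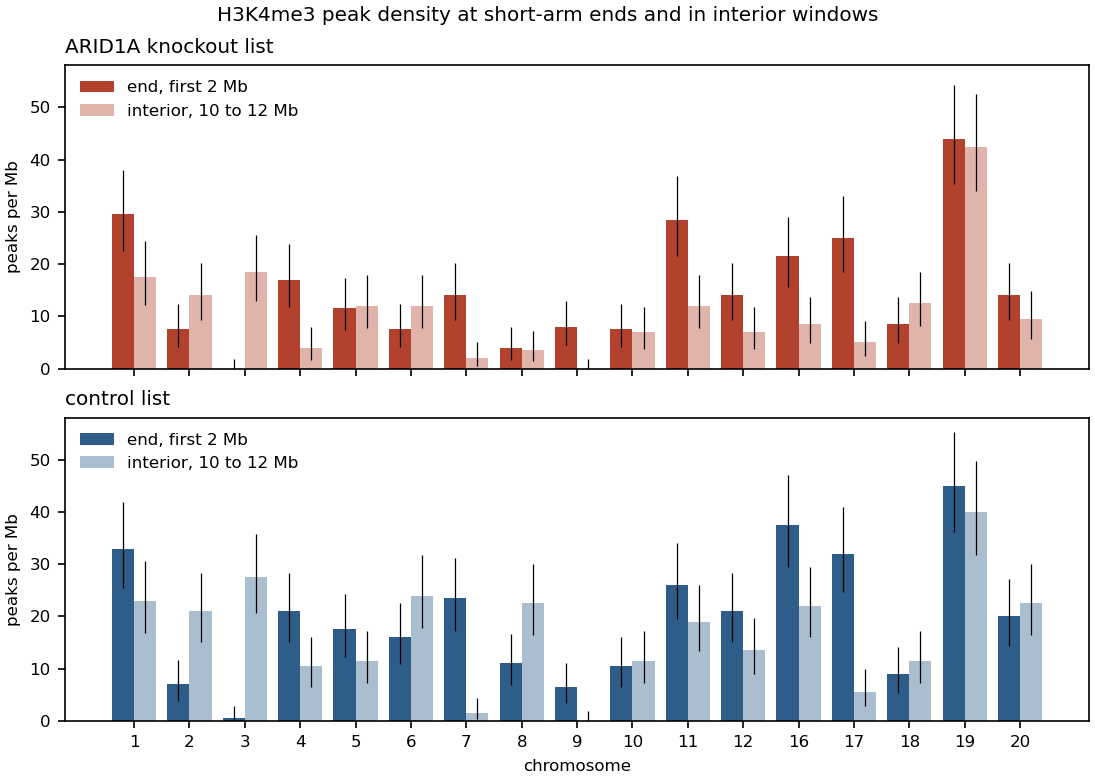
H3K4me3 peaks per Mb (vertical axis) in the first 2 Mb (dark bars) and from 10 to 12 Mb (pale bars) of each chromosome, with the ARID1A knockout list above and the control list below. Lines are exact 95% Poisson intervals, and the end of chromosome 3 is nearly empty in both lists while chromosome 19 is the densest.

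Peak density did not rise all the way to the chromosome start. Within the ends, the first 0.5 Mb was the sparsest part, with 12.2 peaks per Mb in knockout and 15.9 in control cells. Bins and windows were taken at full length, with no correction for sequence missing from the assembly. Density was highest from 0.5 to 1 Mb, at 18.1 and 24.2 peaks per Mb, and came to 14.5 and 18.5 from 1.5 to 2 Mb. The neighbouring windows from 2 to 4 Mb held 13.9 knockout and 17.97 control peaks per Mb, so that the ratio of the ends to them was 1.11 (0.976 to 1.26) in the knockout and 1.10 (0.987 to 1.23) in the control list. Both intervals take in 1. The bins from 4 to 6 Mb held 9.38 and 13.97 peaks per Mb, and those from 6 to 8 Mb held 12.2 and 14.2. From 6.5 to 7 Mb the knockout list reached 16.1 peaks per Mb, so density did not fall steadily with distance. Within 100 kb of the chromosome start there were 20 knockout and 17 control peaks, spread over 10 chromosomes in each list. Nearest to a chromosome start in the knockout list were a peak of 378 tags on chromosome 1 (28674 to 29248) and a peak of 792 tags on chromosome 9 (28714 to 29571). Each lay inside a control peak, of 5559 bp and 916 tags on chromosome 1 and of 5867 bp and 931 tags on chromosome 9. At the other extreme, the first knockout peak of chromosome 5 began at 218035 and the only control peak of the chromosome 3 end at 888468.

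**Figure D2:**
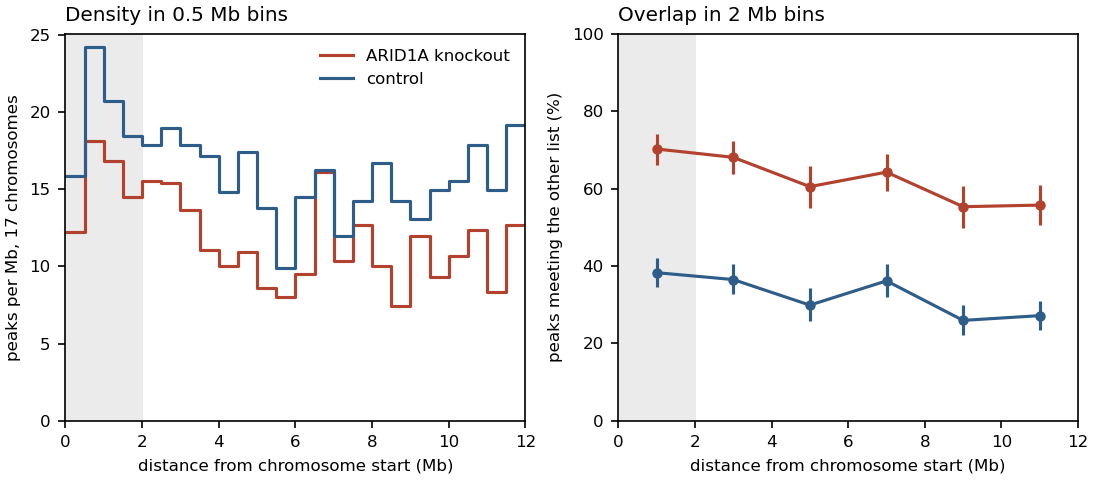
Left, peaks per Mb over the 17 chromosomes in 0.5 Mb bins of distance from the chromosome start. Right, the share of peaks that share at least 1 bp with a peak of the other list in 2 Mb bins, with exact 95% intervals. The shaded 2 Mb are the ends; density peaks from 0.5 to 1 Mb, and the overlap is nearly as high from 2 to 4 Mb as in the ends.

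Control peaks were wider and richer in tags at the ends than in the interior windows, while knockout peaks had the same median width in both. The median control peak spanned 3578 bp at the ends (quartiles 2155 and 6122 bp), against 2990 bp (1985 and 5122 bp) in the interior. It held 271.5 tags (quartiles 94.2 and 930), against 164.5 (77 and 685) in the interior. The median knockout peak spanned 300 bp in both windows, with an upper quartile of 484 bp at the ends and 468 bp in the interior. It held 456.5 tags at the ends (quartiles 191 and 822), against 414 (201 and 672) in the interior. In 5 of the 15 chromosomes with knockout peaks in both windows the end had the higher median tag count, so the pooled knockout difference was not shared by most chromosomes. For control peaks it was higher in 9 of 16. Raw tags are not comparable between the libraries, which differ in depth.

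Among the knockout peaks of the ends, 274 (52.3%) were exactly 300 bp wide, the fragment length given to the peak caller, against 212 (56.5%) in the interior. Knockout peaks of at least 1 kb numbered 23 of 524 at the ends and 12 of 375 in the interior. Control domains of 10 kb or more numbered 28 at the ends (4.15% of control peaks) and 18 in the interior (3.14%). They made up 2.94% of the whole control list. The authors' fold enrichment over local background from the input, used here only to describe peaks within a list, had a median of 204 at the knockout ends and 189 in the knockout interior. In the control list it was 36.6 at the ends and 24.3 in the interior. The ends took nearly the same part of all tags in peaks in both libraries, 2.40% in knockout and 2.45% in control cells, against 1.52% and 1.55% in the interior windows. They held 2.22% of all knockout peaks and 1.84% of all control peaks. No single peak dominated, since the 10 strongest held 10.4% of the end tags in the knockout and 10.5% in the control.

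**Figure D3:**
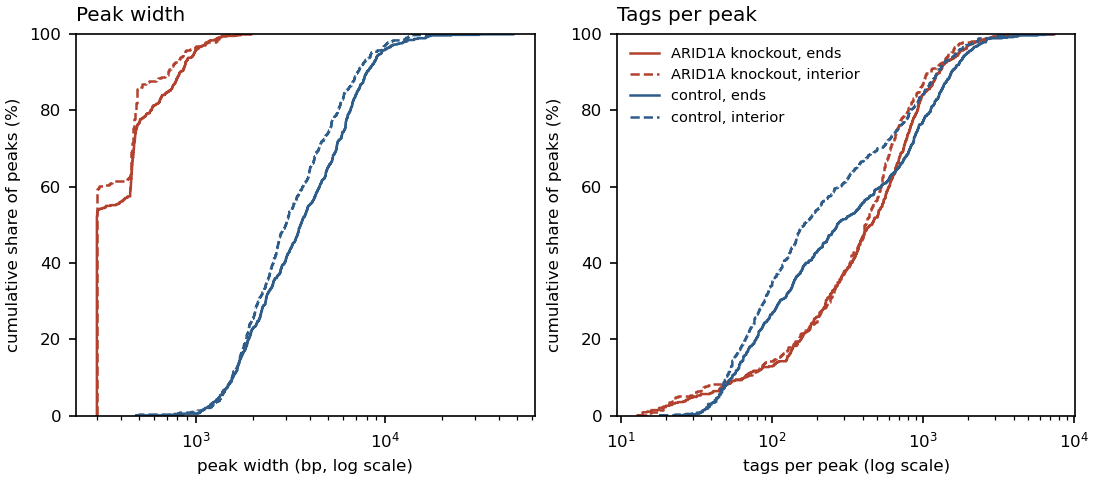
Cumulative share of peaks by width (left) and by tags per peak (right), both on log axes, for ARID1A knockout and control lists, with ends as solid and interior windows as dashed lines. The control curves of the ends lie to the right of the interior ones, and the knockout curves of both windows rise at 300 bp.

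The lists overlapped more at the ends than in the interior windows. Of the 524 knockout peaks at the ends, 368 met a control peak by 1 bp or more (70.2%, 66.1 to 74.1%), against 209 of 375 in the interior (55.7%, 50.5 to 60.8%). Over the whole knockout list this share was 60.3%. Of the 674 control peaks at the ends, 258 held a knockout peak (38.3%, 34.6 to 42.1%), against 156 of 574 in the interior (27.2%, 23.6 to 31.02%). The share in the whole control list was 28.4%. Control peaks also covered more of the ends than of the interior, as given above, and the part of this in the overlap was not tested. From 2 to 4 Mb the shares were 68.1% of knockout and 36.5% of control peaks, close to those of the ends. They were 60.5% and 29.9% from 4 to 6 Mb, and 64.3% and 36.2% from 6 to 8 Mb.

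Control peaks were also compared in classes of tags and of width, chosen after the data were seen. Control peaks with under 100 tags held a knockout peak in 5.03% of cases at the ends (2.32 to 9.33%) and in 4.10% in the interior (1.79 to 7.92%). Those with 100 to under 500 tags did so in 17.6% (12.9 to 23.3%) and 14.6% (10.1 to 20.2%). Over the whole control list the share was 4.59% for the first of these classes and 16.9% for the second. For control peaks of 500 tags or more the shares were 76.6% at the ends (71.2 to 81.5%) and 67.8% in the interior (60.3 to 74.7%), with 69.1% over the whole list. The strong class made up 40.7% of the control peaks at the ends and 30.3% in the interior. Of the 28 control domains of 10 kb or more at the ends, 27 met a knockout peak (96.4%), against 15 of 18 in the interior (83.3%) and 84.4% over the whole list. At least 2 knockout peaks lay in 85 control peaks at the ends (12.6%, 10.2 to 15.4%), against 39 in the interior (6.79%, 4.88 to 9.17%). This share was not computed over the whole control list, so it was not set against that background. The distance between knockout and control summits was a median of 554 bp at the ends, for the 367 knockout peaks that met exactly 1 control peak, and 659 bp in the interior.

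By chromosome, the knockout share was higher at the end than in the interior on 12 of the 15 chromosomes with peaks in both windows, the exceptions being chromosomes 2, 6 and 8. The control share was higher at the end on 10 of 16 and lower on chromosomes 2, 3, 5, 6, 7 and 19. The knockout share was highest at the ends of chromosome 19, with 75 of 88 peaks (85.2%, 76.1 to 91.9%), of chromosome 16, with 36 of 43 (83.7%, 69.3 to 93.2%), and of chromosome 20, with 23 of 28 (82.1%, 63.1 to 93.9%). Their intervals overlap one another. The lowest was that of chromosome 2, with 1 of 15 (6.67%, 0.169 to 31.9%). Chromosome 9 followed with 5 of 16 (31.2%, 11.02 to 58.7%). The highest and lowest ends were picked by these same shares, so their difference was not tested. Control peaks covered 25.2%, 17.1% and 9.39% of the ends of chromosomes 19, 16 and 20, and 1.98% and 2.08% of those of chromosomes 2 and 9. On chromosome 18 control peaks covered 2.37% of the end, and 10 of 17 knockout peaks met one (58.8%, 32.9 to 81.6%). On chromosome 8 they covered 3.65%, and 5 of 8 knockout peaks met one (62.5%, 24.5 to 91.5%). Both intervals overlap that of chromosome 9, and the relation of coverage to overlap across the ends was not tested.

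**Figure D4:**
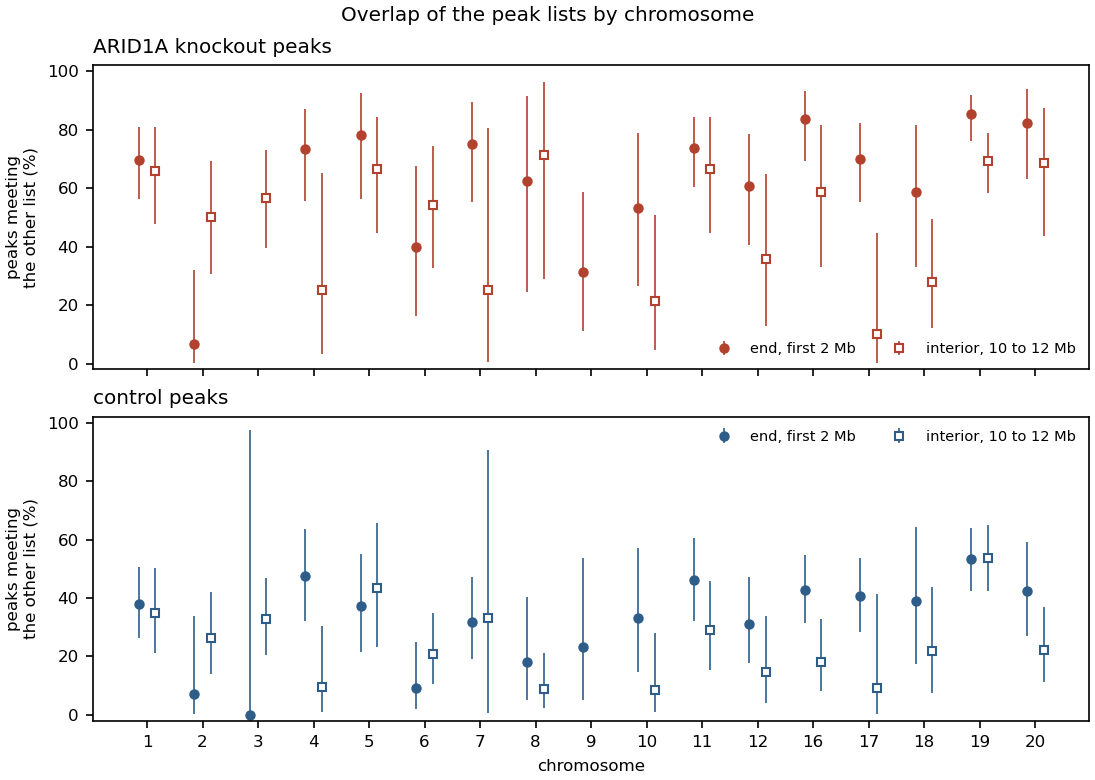
Share of ARID1A knockout peaks (above) and control peaks (below) that share at least 1 bp with a peak of the other list, for the end (filled circles) and the interior window (open squares) of each chromosome, with exact 95% intervals. Windows with no peak have no point, and the end of chromosome 2 stands lowest among the knockout ends.

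The largest control domain of the ends lay on chromosome 19, from 1231600 to 1279509, and was the second widest of the whole control list, at 47910 bp with 7302 tags (7135 to 7471). It held 6 knockout peaks, which together covered 3564 bp with 5446 knockout tags. The knockout tags were concentrated in 1 of them, from 1249003 to 1250971, which held 3360 tags in 1969 bp and was the widest knockout peak of all the ends. A second, from 1241713 to 1242107, held 902 tags and lay 99 bp from the summit of the control domain. The remaining 4 peaks, each 300 bp wide, held from 125 to 712 tags.

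A pair of neighbouring domains on chromosome 11 came next. The first ran from 792578 to 824001, spanned 31424 bp with 6484 control tags, and met 6 knockout peaks, with 3418 knockout tags. The last of them crossed the edge of the domain and shared 118 bp with it. The strongest of those, from 809673 to 810741, held 1166 tags and lay 258 bp from the control summit. The second domain, from 825117 to 847475, spanned 22359 bp with 5765 control tags and held 2 knockout peaks with 2345 tags. On chromosome 1 a much smaller domain, from 1278775 to 1285509, held 5 separate knockout peaks with 127 to 780 tags each, 2124 in all, against 1447 control tags over 6735 bp. The other strong control domains of the ends were on chromosome 11 from 306290 to 323024, with 4321 tags and 3 knockout peaks, and on chromosome 5 from 1788493 to 1805903, with 4226 tags and 1 knockout peak.

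The strongest knockout peak of all 23588 was at a chromosome end. It lay on chromosome 7, from 1067151 to 1068448, and held 7471 tags (7303 to 7642) in 1298 bp, inside a control peak of 4299 bp with 570 tags. Per kb of peak this was 5756 knockout tags over 1298 bp, against 133 control tags over 4299 bp. Over all peaks of the ends these values were 1328 knockout and 140 control tags per kb. Raw tags are not comparable between the libraries, and the peaks differ in width. Within the ends, the chromosome 19 peak of 3360 tags described above came next. It was followed by a peak on chromosome 20 from 306023 to 307390, with 3271 tags in 1368 bp. That peak lay inside a control peak of 8564 bp with 1842 tags. The interior windows held knockout peaks above both, with 3819 and 3531 tags. A peak on chromosome 9 from 178338 to 178909 packed 3231 tags into 572 bp, within a control peak of 651 tags. On chromosome 16, from 685515 to 686342, 2901 knockout tags stood inside a control peak of 834 tags.

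The ends of chromosomes 2, 3 and 9, singled out after their values were seen, each differed from the pooled values in its own way. At the end of chromosome 3 the control list had a single peak, from 888468 to 889811, with 53 tags (39.7 to 69.3), and the knockout list had none. The interior window of the same chromosome held 37 knockout and 55 control peaks. In the RefSeq annotation of another assembly, GRCh38.p14, the named protein-coding genes nearest this end are, in order, CHL1, CNTN6 and CNTN4, which encode neural cell adhesion molecules of the immunoglobulin superfamily. Their positions in hg19 were not used here.

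At the end of chromosome 2 the lists were similar in number, with 15 knockout and 14 control peaks, but met at only 1 place. There a knockout peak of 191 tags, from 1747015 to 1747715, lay in a control peak of 5265 bp and 828 tags. Its strongest knockout peak held 2021 tags, from 1019281 to 1019734, and lay 7512 bp from the nearest control peak. The next, from 73199 to 73498, held 1350 tags and lay 189237 bp from any. Its strongest control peak, from 262735 to 268471 with 949 tags, lay 22633 bp from the nearest knockout peak. Another, from 674096 to 679507 with 786 tags, lay 228279 bp away. Between 291403 and 907786 the knockout list had no peak, a gap of 616382 bp. The named genes nearest this end in GRCh38.p14 are FAM110C, SH3YL1, ACP1, which encodes a small protein tyrosine phosphatase, and ALKAL2, which encodes a ligand of the receptor kinase ALK. In the interior window of chromosome 2, 14 of 28 knockout peaks met a control peak.

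The end of chromosome 9 was 1 of the 3 ends with more knockout than control peaks, at 16 against 13. In tags it took 3.57% of the knockout end total and 0.943% of the control end total. Besides the peak of 3231 tags, its strongest knockout peak was that from 504802 to 505681, with 1711 tags, inside a control peak of 515 tags. The interior window of chromosome 9 held 0 peaks in both lists, so no comparison of shares could be made there. The end of chromosome 2 also took a larger part of the knockout end tags, 2.67% against 0.921% of the control end tags. Chromosome 8 ran the other way, with 0.797% of the knockout and 1.87% of the control end tags, from 8 knockout and 22 control peaks. For chromosomes 17 and 19 the parts were close, at 10.1% and 18.2% of the knockout end tags, against 10.6% and 17.3% of the control end tags.

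Control peaks at the ends that held no knockout peak were mostly weak. The median of these 416 peaks was 134 tags over 2523 bp, while that of the 258 holding one was 1049 tags over 6230 bp. The interior windows showed the same split, with 114 tags over 2489 bp and 985 tags over 5835 bp. The strongest of the 416 at the ends was on chromosome 5, from 609228 to 618087. It spanned 8860 bp, held 2406 tags (2311 to 2504) and had no knockout peak within 123581 bp. On chromosome 10, from 727414 to 737881, a control domain of 1872 tags had its nearest knockout peak 169658 bp away, a peak of 18 tags. The next, on chromosome 6 from 1607533 to 1615214, held 1745 tags and had a knockout peak 10996 bp away. A domain of 1696 tags on chromosome 1 (1205775 to 1212379) had a knockout peak 4602 bp away, and one of 1665 tags on chromosome 17 (1729271 to 1738940) had one 11501 bp away.

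Knockout peaks outside control peaks were fewer than those inside and held fewer tags at the median. The 156 such peaks at the ends held 20.9% of the knockout end tags, with a median of 300 tags (quartiles 157 and 591), against 552 (228 and 923) for the 368 inside. In the interior windows 166 knockout peaks lay outside and held 33.6% of the knockout tags there. The median distance to a control peak was 6679 bp at the ends and 16658 bp in the interior. More than 50 kb from any control peak lay 22 of the 156 at the ends and 46 of the 166 in the interior. The strongest at the ends was on chromosome 17, from 1159395 to 1159877, with 2056 tags (1968 to 2147), 622 bp from a control peak of 609 tags. On chromosome 5, from 435408 to 435874, 1726 tags lay 2908 bp from a control domain of 2473 tags. A second peak on chromosome 17, from 1352287 to 1352751, held 1463 tags and lay 2323 bp from a control domain of 1970 tags. The other strong members of this group were the chromosome 2 peaks described above.

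Where 1 knockout peak matched 1 control peak, the tags of the libraries were only loosely related. There were 171 such pairs at the ends, with medians of 570 knockout and 868 control tags, and 117 in the interior, with medians of 508 and 840. The log2 ratio of knockout over control tags (pseudocount 1), centred on the median of all 7552 pairs of the genome, had a median of -0.21 at the ends (quartiles -1.69 and 0.90) and of 0.09 in the interior (quartiles -0.91 and 1.17). The pairs come from the same 2 IP libraries and are not replicates, so this difference was not tested. Its SD was 2.02 at the ends and 1.88 in the interior. At the ends 19 pairs (11.1%) were at least 4-fold above the genome median, against 13.4% of all pairs and 11 (9.40%) in the interior. Pairs at least 4-fold below it numbered 36 (21.1%) at the ends, against 14.9% of all pairs and 13 (11.1%) in the interior. Across the pairs Spearman's rho between the tags of the lists was 0.23 at the ends and 0.25 in the interior, a description across regions that share their libraries.

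The highest centred ratio at the ends, 4.17 (4.05 to 4.29), belonged to the chromosome 7 peak of 7471 tags. It was followed by a pair on chromosome 19, where a knockout peak from 822835 to 823873 with 943 tags met a control peak of 78 tags, at 4.03 (3.72 to 4.40). On chromosome 20 a knockout peak from 118150 to 118932 held 1764 tags within a control peak of 156 tags, at 3.95 (3.72 to 4.20). It was the first peak of that chromosome in both lists. The named genes nearest this end in GRCh38.p14 are those of a beta-defensin cluster, DEFB125 to DEFB129, which encode antimicrobial peptides. Their positions in hg19 were not used, and the peak is assigned to none of them. At the low end stood a pair on chromosome 16, where a knockout peak from 729996 to 730489 held 27 tags within a control domain of 6972 bp and 1348 tags, at -5.13 (-5.79 to -4.64). A pair on chromosome 4 with 27 knockout and 1266 control tags followed at -5.04 (-5.70 to -4.55), and one on chromosome 1 with 18 knockout and 846 control tags at -5.02 (-5.86 to -4.43). The interior windows held pairs beyond both extremes, up to 5.12 on chromosome 18 and down to -5.50 on chromosome 10. The named pairs were picked by this same ratio, and their intervals cover counting error only. The paired peaks differ in width, with a median of 454 bp in knockout and 5571 bp in control cells at the ends.

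**Figure D5:**
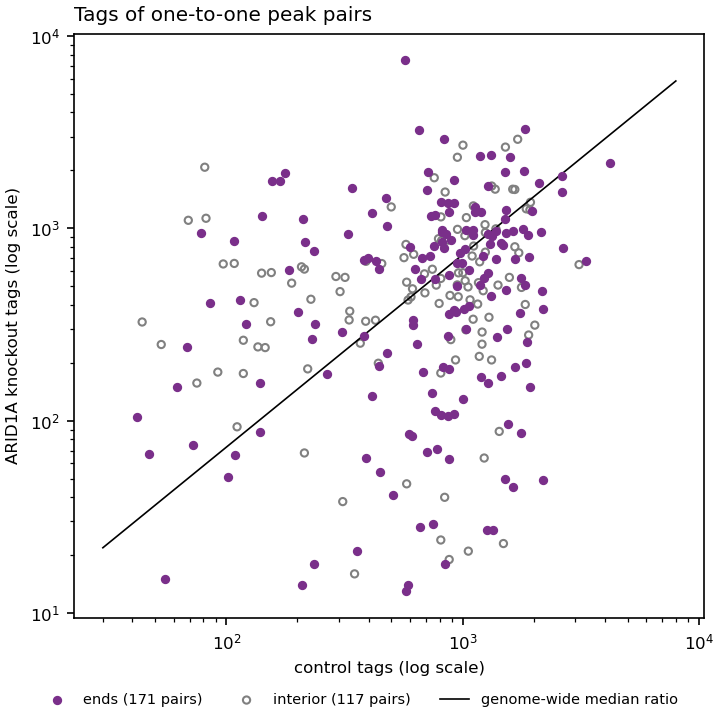
Tags of the ARID1A knockout peak (vertical, log scale) against tags of the control peak (horizontal, log scale) for pairs in which 1 peak of each list meets 1 of the other, with 171 pairs at the ends (filled) and 117 in interior windows (open). The line is the median ratio of all 7552 pairs, and the end pair with the most knockout tags has 7471.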

How the data were processed

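The authors sequenced H3K4me3 IP and input libraries of MDA-MB-231 cells with and without ARID1A, which were grouped here by title. Per the submitters' processing notes, the aligner was listed as Bowtie2 2.2.4 and the peak caller as MACS 1.4.3, on hg19. Per the file headers, reads were trimmed with cutadapt and MACS ran with a p cutoff of 0.0001, 150 bp tags and 300 bp fragments, with the larger of IP and input scaled towards the smaller. Removal of duplicates is not stated in the headers or labels. The libraries were not pooled.

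The deposited tag counts are raw IP tags per peak. The deposited score is the −log10 of the MACS p-value, times 10, identified by its place in the table. The deposited fold enrichment is a ratio to the local background from the input, and the deposited FDR is a percent. These were used only to describe or filter peaks within a list.

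Analyses used scipy 1.17.1, pandas 2.3.3 and numpy 2.4.6 under Python 3.11.15, with figures from matplotlib 3.10.9. Overlap meant at least 1 shared bp, was checked with bedtools 2.31.1, and counted partners in or out of the window. The steps were tested on simulated data. With 1 library per genotype there was no test. Named peaks were the 5 with most tags and the 3 widest per list, the 5 strongest without overlap per list, the 3 highest and 3 lowest ratios of pairs with at least 50 tags in both peaks together, and the control domains holding most knockout peaks. Peaks of the ends of chromosomes 2, 3 and 9 were added after their values were seen. Ends named were the extremes in density and those against the pooled direction. The windows and rules were chosen with earlier results of these data known. Gene names come from RefSeq of GRCh38.p14, for gene order only, leaving out unnamed loci. Alternatives were stricter thresholds, wider knockout peaks, other windows, other overlap criteria, other scalings of the ratio and leaving out each chromosome.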

Additional observations from a re-analysis of the deposited data

How the results depend on the processing

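No paired analysis was possible because each genotype has 1 IP library. Of 88 recomputed values 64 were kept and 24 moved. Densities and differences in share counted as kept within 1.5 times the value given. Ratios, shares and medians counted as kept within their 95% interval, for medians that of the order statistics over peaks or pairs. Against 20 to 22 Mb the ratio of ends to interior was 2.47 in the knockout and 2.0 in the control list, against all the rest of the same chromosomes it was 1.89 and 1.57, and against 2 to 4 Mb (added after seeing the data) it was 1.11 and 1.10. The excess in share of overlapping peaks over the comparison window, 14.5 percentage points for knockout and 11.1 for control peaks, was 2.15 and 1.78 against 2 to 4 Mb, and 7.20 for control peaks with windows of 1 Mb. With a false discovery rate of 1% or less, the control ends had 12.6 peaks per Mb, a density ratio of 1.41, a median width of 5308 bp, a median of 783 tags and a share of 54.7%. A MACS p of 1e-10 or less gave a control width of 4623 bp, 584 tags and a share of 47.6%. Once knockout peaks of 300 bp were dropped, the knockout ends had 7.35 peaks per Mb, a width of 492 bp, 744 tags and a share of 82.4%, and the control share was 25.7%. When 50% of a control peak had to be covered, the control share was 0 of 674, where 3 counts would be 0.445%, and the excess was 0, by construction of the narrow knockout peaks. By construction, keeping only knockout peaks wider than 300 bp lowers their density, raises their median width and lowers the control share. Divided by library totals and not centred, the median log2 ratio of end pairs was 0.38, a change of sign from the centred -0.21. This scaling moves the uncentred ratio of every pair by the same amount, so it does not change how the ends stand to all pairs. The cause was not tested for the remaining shifts. Leaving out each chromosome in turn moved none of the 221 values beyond these limits. The knockout ratio ran from 1.30 without chromosome 17 to 1.55 without chromosome 3, and the control ratio from 1.08 (0.965 to 1.22) to 1.30 without the same chromosomes. No value here measures what depth limits beyond the counting intervals.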
